A study of Homo sapiens with 28 samples.

Results

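A group of 10 genes of the cyclin E, CDK2 and E2F circuit was followed across residual tumors and tumor-derived cultures of a human colorectal cancer line: CCNE1, CCNE2, CDK2, CDC25A, E2F1, E2F2, E2F3, E2F7, E2F8 and RBL1. They were chosen by gene symbol in the deposited table of counts per gene, where 10 of 58278 genes matched, and all 10 passed the filter on low counts in tumors (14848 genes tested) and in cultures (13985 genes tested). RNA-seq libraries had been made from 16 residual xenograft tumors and from 12 cultures explanted from such tumors, in the same 4 treatment groups, to ask how tumors that survive Palbociclib or Telaglenastat differ in expression and whether the differences persist without drug. Palbociclib inhibits the kinases CDK4 and CDK6, and Telaglenastat (spelled Telaglenestat in the sample labels) inhibits glutaminase.

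All tumors came from HCT116 cells carrying luciferase and GFP, injected under the skin of male NOD SCID mice 5 weeks old, a strain that lacks functional T and B cells but keeps macrophages and its own stroma. Treatment lasted 23 days. Control mice (3 tumors) received vehicle, Palbociclib mice (5 tumors) 100 mg per kg per day, Telaglenastat mice (4 tumors) 150 mg per kg per day, and Combination mice (4 tumors) both drugs at those doses. The 12 cultures, 3 for each treatment, were separate cell lines that grew without drug, and their labels do not tie them to the sequenced tumors. HCT116 is 1 cell line, so the groups are models of its response alone.

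Cyclin E, encoded by CCNE1 and CCNE2, binds CDK2 and drives cells from G1 into S phase, and the phosphatase CDC25A activates CDK2 by removing inhibitory phosphates. Active cyclin-CDK complexes phosphorylate the retinoblastoma protein and its relatives, among them p107 (RBL1), which then release E2F transcription factors. E2F1, E2F2 and E2F3 mainly activate genes of DNA synthesis, cyclin E and E2F genes included, whereas E2F7 and E2F8 are atypical family members that repress the same genes later in the cycle.

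Promoter sequences from RefSeq (GRCh38.p14, 250 bases before to 50 after the annotated start) matched 7 of the 10 members, all but CCNE2, CDK2 and E2F8. They were searched on both strands for the E2F site letters TTTCCCGC, TTTCGCGC, TTTGCCGC and TTTGGCGC, which do not overlap in the letters found here. At least 1 occurred in 5 of the 7 (71.4%), in 14 of 25 matched G1/S genes (56%) and in 3.31% of all 35116 windows. The stretches of 100 bases before the start of these 5 are shown because the members that carry the letters did not move alike, with the E2F letters, or their reverse complement, in capitals. The windows of CCNE1 and E2F7 held none. The letters of the CHR element, TTTGAA or TTTAAA, occurred in 2 of the 7 windows (28.6%) and in 24% of all.
CDC25A (chr3:48188418-48188517, minus strand): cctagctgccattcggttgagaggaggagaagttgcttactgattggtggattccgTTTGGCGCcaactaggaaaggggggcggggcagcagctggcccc
E2F1 (chr20:33686386-33686485, minus strand): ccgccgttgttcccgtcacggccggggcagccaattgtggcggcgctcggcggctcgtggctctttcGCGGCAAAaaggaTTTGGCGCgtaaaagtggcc
E2F2 (chr1:23531234-23531333, minus strand): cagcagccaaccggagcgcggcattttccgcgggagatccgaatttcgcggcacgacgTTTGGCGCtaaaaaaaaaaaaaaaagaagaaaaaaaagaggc
E2F3 (chr6:20401779-20401878, plus strand): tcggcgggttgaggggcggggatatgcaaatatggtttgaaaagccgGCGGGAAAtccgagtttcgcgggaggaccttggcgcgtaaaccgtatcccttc
RBL1 (chr20:37095998-37096097, minus strand): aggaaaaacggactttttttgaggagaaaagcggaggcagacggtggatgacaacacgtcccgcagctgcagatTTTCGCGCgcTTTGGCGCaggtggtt

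The first base of the letters lay at -44 from the start in CDC25A, at -33 and -20 in E2F1, at -42 in E2F2, at -53 in E2F3 and at -26 and -16 in RBL1. A match of letters is a description of the sequence, and binding was not measured.

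The libraries held 6273834 to 10617936 counts in tumors and 7198540 to 13815675 in cultures. Replicates differed by more than counting noise in all 37 pairs within a group (chi-square per gene between 4.29 and 59.5), so none was treated as a duplicate. The pairs of Telaglenastat cultures stood highest, at 58.2, 46.4 and 59.5, and the next pair, of Palbociclib tumors, stood at 27.2. Telaglenastat cultures enter the estimate of spread that all culture comparisons share. They also enter that of the fit of all 28 libraries. The epithelial markers EPCAM, KRT8, KRT18, KRT19 and CDH1 were detected in every group. In CPM (counts scaled to a common library size, here over all 28 libraries) they summed to 2619 to 3157 in Control, 2879 to 3990 in Palbociclib, 1553 to 1712 in Telaglenastat and 2253 to 2548 in Combination tumors. With Telaglenastat 3 of the 5 were called lower and 1 higher as counted, where 28.5% and 22.6% of all genes were. After the GC and length correction described below, 3 were lower and 0 higher, where 8.47% and 6.38% of all genes were. Summed over 6 fibroblast markers, tumors held 48.0 to 192 CPM and cultures 2.42 to 8.05. Within tumors that sum was 151 to 192 in Control, 109 to 187 with Palbociclib, 48.0 to 61.1 with Telaglenastat and 95.1 to 142 with the Combination. LUM was at 0 in all 4 groups and DCN in all but Palbociclib, and 3 of the 6 markers were tested in tumors. Stroma and macrophages of these tumors are those of the mouse, whereas the counts are of human genes. Sums over such markers therefore do not measure the content of those cells. How many mouse reads they hold was not tested. The 5 macrophage and leukocyte markers summed to 14.4 to 19.6 CPM in Control and 22.2 to 30.6 in Palbociclib tumors. They summed to 2.71 to 9.91 in Telaglenastat and 9.68 to 16.7 in Combination tumors. On that sum Palbociclib tumors lay above and Telaglenastat tumors below Control without overlap. In cultures it was 0.122 to 3.89 CPM. Only 3 of the 5 were tested in tumors. Of these, 0 were called with Palbociclib and 2 lower with Telaglenastat, where 28.5% of all genes were (1 corrected, against 8.47%). CD14 was at 0 in Palbociclib, Telaglenastat and Combination tumors. The 4 endothelial markers stayed at or below 2.57 CPM everywhere, with CDH5 at 0. Whether these marker shifts took part in any result on the members was not tested.

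Tumor libraries also differed in a trend on base composition. The slope of log2 CPM on the GC content of a gene's longest transcript, per SD of GC (8.49 percentage points), was 0.246 to 0.257 in Control tumors and 0.0968 to 0.359 in Palbociclib tumors, but -0.385 to -0.300 in Telaglenastat tumors and -0.283 to -0.161 in Combination tumors. The 8 tumors that received Telaglenastat and the 8 that did not were separated on this measure without overlap. The trend and the drug therefore cannot be told apart by design. Values of the comparisons across that divide are therefore also given with GC content and length corrected for. Palbociclib and Control tumors overlapped in slope only through the second Palbociclib tumor (0.0968), since the other Palbociclib tumors (0.313 to 0.359) lay above every Control tumor. Combination and Telaglenastat tumors lay on the same side of the average of these tumors but did not overlap.

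CDK2 was the most abundant member per length in Control tumors, at 22.6 ± 2.18 RPKM (CPM per kilobase of exon, SD, n = 3). E2F3 (13.8 ± 0.660 RPKM) and CCNE1 (10.6 ± 0.976 RPKM) came next, each clear of its neighbour in the order. E2F1, CCNE2, E2F7, CDC25A and E2F8 followed between 6.13 and 5.06 RPKM, and each overlapped the next. RBL1 (4.97 ± 0.491 RPKM) stood above E2F2, which was lowest at 3.56 ± 0.321 RPKM. In Control cultures CDK2 again led at 33.5 ± 1.67 RPKM and E2F2 was again last at 4.58 ± 0.955 RPKM.

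**Figure D1:**
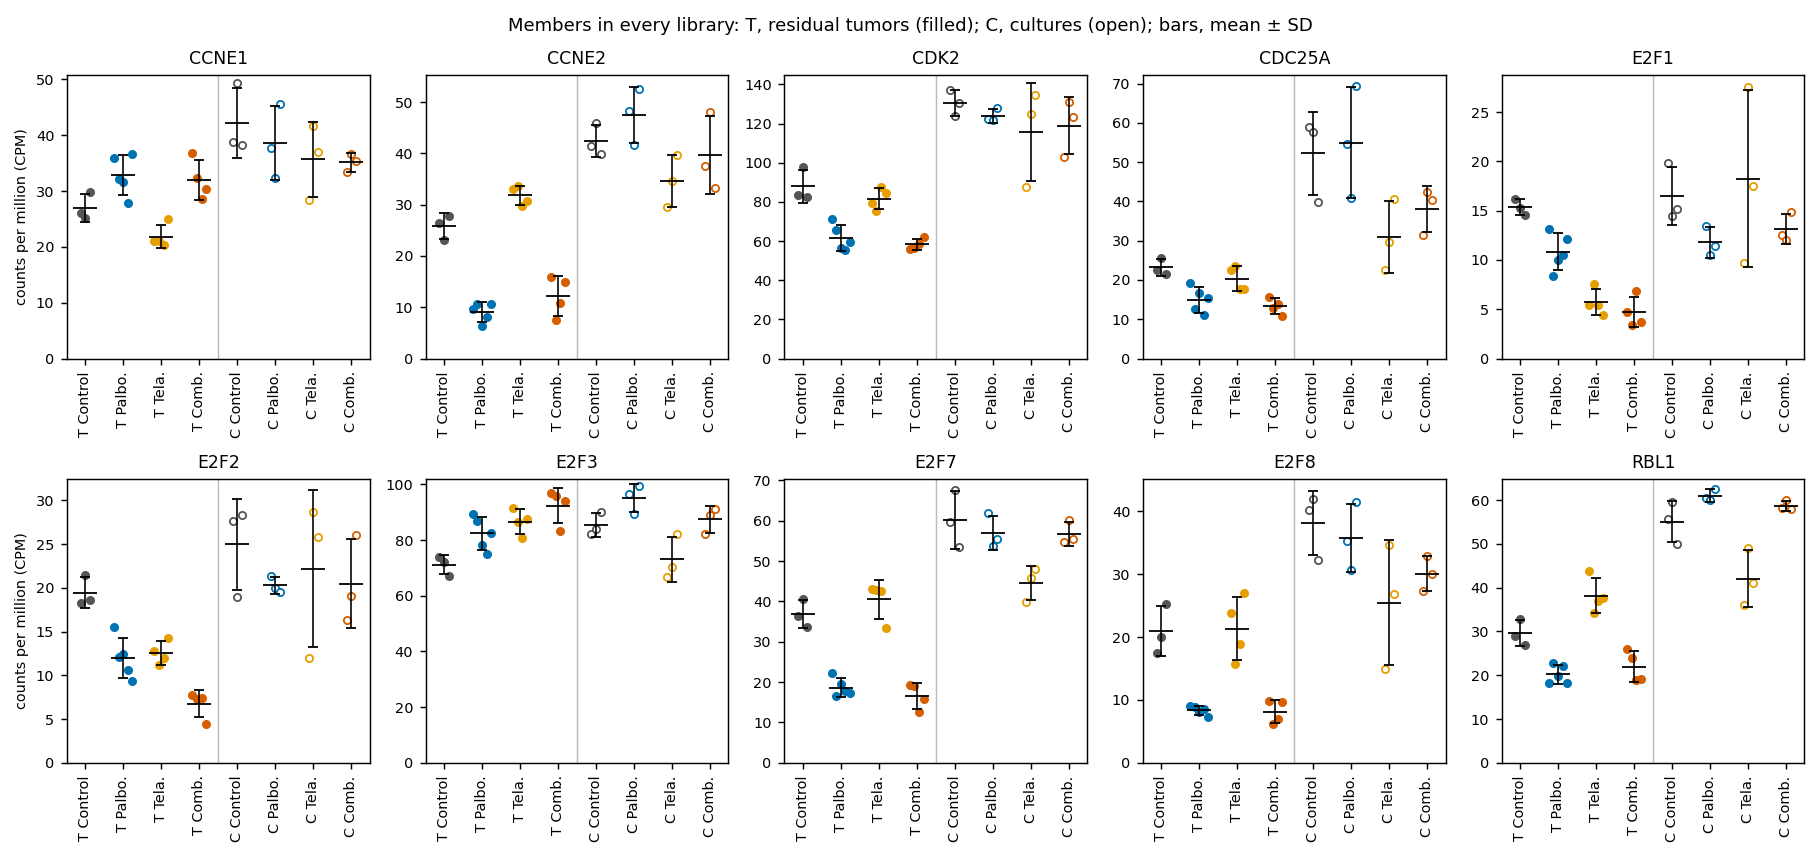
CPM of each member (vertical axis, from 0) in every library of the 8 groups (horizontal axis), with T for tumors (filled) and C for cultures (open), and bars for the mean ± SD. In tumors, CCNE2, E2F7 and E2F8 are low in all 9 libraries that received Palbociclib, alone or in the Combination, while CCNE1 and E2F3 are not.

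Palbociclib tumors were compared with Control tumors first, which asks what a CDK4/6 inhibitor leaves behind in this circuit. Of the 10 members, 7 fell and none rose: CCNE2, E2F8, E2F7, E2F2, CDC25A, RBL1 and CDK2. Of all genes tested, 3.60% fell in this comparison and 2.55% rose (edgeR quasi-likelihood, Benjamini-Hochberg adjusted p under 0.05). The members' median log2 fold change was -0.59, against 0.00067 over all genes tested. In bulk tumors, a lower value may mean fewer cells expressing a gene or less RNA per cell, and these cannot be told apart.

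The E cyclins parted. CCNE2 (minus strand of chromosome 8, GRCh38) had 26.5, 23.02 and 27.9 CPM in the 3 Control tumors. It had 9.63, 10.6, 6.34, 8.07 and 10.7 CPM in the 5 Palbociclib tumors. Every Palbociclib tumor lay below every Control tumor, and CCNE2 fell by 1.51 on the log2 scale (SE 0.19, 2.86-fold lower, adjusted p = 3.32e-05). CCNE1 (chr19:29811898-29824308, plus strand) had 26.0, 25.1 and 29.8 CPM in Control and 36.0, 32.2, 31.7, 27.9 and 36.6 CPM in Palbociclib tumors. Only the fourth Palbociclib tumor fell inside the Control range, and the log2 fold change of CCNE1 was 0.28 (95% interval 0.05 to 0.52) with an adjusted p of 0.171, short of the threshold.

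Counts of both cyclins can be set against each other within a library, which removes any scaling between libraries. The CCNE2 to CCNE1 count ratio was 1.02, 0.916 and 0.935 in Control tumors and 0.268, 0.331, 0.200, 0.289 and 0.293 in Palbociclib tumors. It was 1.58, 1.60, 1.46 and 1.23 in Telaglenastat tumors and 0.431, 0.231, 0.378 and 0.490 in Combination tumors. All 9 libraries that received Palbociclib lay at or below 0.490, and all 7 others lay at or above 0.916. The cultures showed no such divide, with group means of 1.01 ± 0.0734 for Control, 1.24 ± 0.0747 for Palbociclib, 0.984 ± 0.134 for Telaglenastat and 1.13 ± 0.185 for Combination (SD, n = 3 each). Palbociclib cultures (1.28, 1.29 and 1.15) lay above Control cultures (1.07, 0.930 and 1.04) without overlap, in the opposite direction to the tumors. This difference in the ratio was not tested. CCNE2 is poorer in GC (36.9%) than CCNE1 (52.9%), and the ratio is not corrected for the GC trend described above. After the GC and length correction, Telaglenastat against Control tumors stood at -0.10 for CCNE2 and 0.06 for CCNE1, neither called. The exons of CCNE2 share 1633 bases with genes on the opposite strand (INTS8 and AC087752.4), whose reads are split from it only if the counting used strand. The same limit holds for CDK2 (654 bases, with PMEL and AC025162.1), RBL1 (211 bases) and E2F8 (7 bases).

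**Figure D2:**
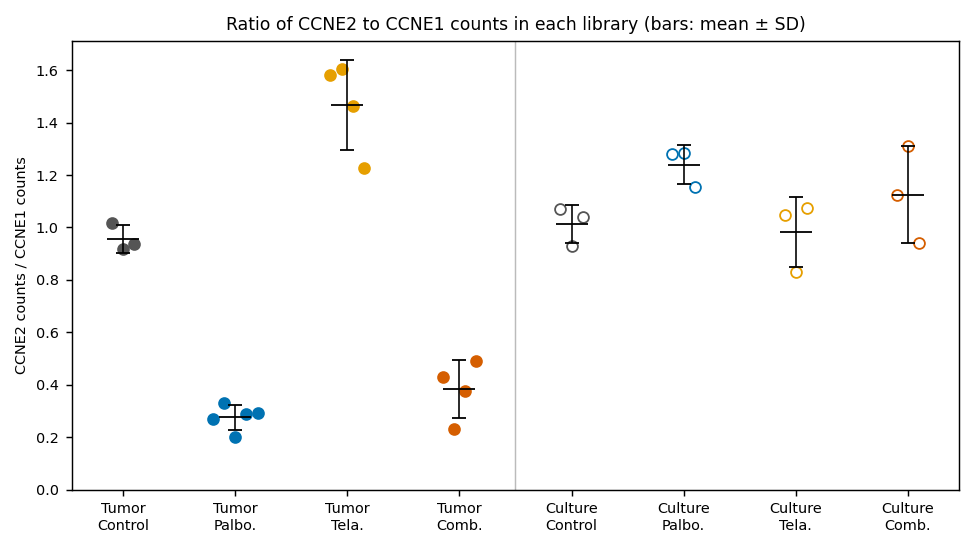
Counts of CCNE2 divided by counts of CCNE1 (vertical axis, from 0) in each library of the 8 groups (horizontal axis), filled for tumors and open for cultures, with bars for the mean ± SD. Palbociclib and Combination tumors sit between 0.200 and 0.490, below all other tumors and all cultures.

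The kinase and its phosphatase changed less than CCNE2. CDK2 (chr12:55966769-55972784, plus strand) ranged from 82.6 to 97.8 CPM in Control and from 55.5 to 71.1 CPM in Palbociclib tumors, and it fell by 0.51 on the log2 scale (SE 0.087, adjusted p = 0.000769). CDC25A (chr3:48157146-48188402, minus strand) ranged from 21.6 to 25.7 CPM in Control and from 11.0 to 19.2 CPM in Palbociclib tumors. Neither gene overlapped between the groups. CDC25A fell by 0.63 (SE 0.17, adjusted p = 0.0234), a call lost without any 1 of the 3 Control tumors or without the fourth Palbociclib tumor, with values of -0.54 to -0.68.

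Among the activating E2Fs only E2F2 was called. E2F2 (chr1:23506430-23531220, minus strand) had 18.3, 21.5 and 18.6 CPM in Control and 15.5, 12.1, 12.5, 10.6 and 9.30 CPM in Palbociclib tumors. It fell by 0.69 (SE 0.17, adjusted p = 0.0174), and this call was lost without the second (-0.61) or the third Control tumor (-0.72). E2F1 (chr20:33675683-33686404, minus strand) had 16.2, 15.3 and 14.6 CPM in Control and 13.1, 8.41, 9.99, 10.5 and 12.1 CPM in Palbociclib tumors. Its groups did not overlap either, yet its log2 fold change of -0.50 (95% interval -0.92 to -0.08) had an adjusted p of 0.174. E2F3 (chr6:20401906-20493715, plus strand) lay on the other side, with 67.3 to 73.8 CPM in Control, 75.0 to 89.4 CPM in Palbociclib tumors, no overlap, and a log2 fold change of 0.21 (adjusted p = 0.115). Reads of the pseudogenes E2F3P1 and E2F3P2 could have been counted with it.

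Both atypical E2Fs fell. E2F7 (chr12:77021247-77065580, minus strand) had 36.4, 40.6 and 33.6 CPM in Control and 22.2, 16.6, 19.4, 17.8 and 17.2 CPM in Palbociclib tumors. E2F8 (chr11:19224063-19241620, minus strand) had 17.5, 20.03 and 25.3 CPM in Control and 8.97, 8.94, 8.16, 8.63 and 7.25 CPM in Palbociclib tumors. The groups did not overlap for either gene, and the 5 Palbociclib values of E2F8 lay close together. E2F7 fell by 0.98 (SE 0.13, 1.97-fold lower, adjusted p = 9.01e-05) and E2F8 by 1.31 (SE 0.18, 2.48-fold lower, adjusted p = 0.000116). Whether these falls exceeded those of the activating E2Fs was not tested.

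RBL1 (chr20:36996349-37095995, minus strand), the pocket protein of the group, had 29.1, 32.8 and 27.0 CPM in Control and 18.1, 22.7, 19.8, 22.2 and 18.3 CPM in Palbociclib tumors. The groups did not overlap, and RBL1 fell by 0.55 (SE 0.12, adjusted p = 0.00867). Across the members, 8 lay below Control in every Palbociclib tumor (7.83% of all genes did) and 1, E2F3, above (5.93% of all genes). After the GC and length correction the same count of 7 members fell, with 4.00% of all genes lower and 3.66% higher. Without the second Control tumor 4 members were called in place of 7, and RBL1 (-0.47) was among those lost.

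Combination tumors were then compared with Telaglenastat tumors, which adds Palbociclib on top of Telaglenastat. Of the 10 members, 7 fell and 1 rose, where 9.89% of all genes fell and 8.93% rose. The 7 that fell were CCNE2, CDK2, CDC25A, E2F2, E2F7, E2F8 and RBL1, the members that fell with Palbociclib alone. The 2 comparisons share no library, though 1 fit estimated the spread of both. CCNE2 had 33.1, 33.7, 29.8 and 30.7 CPM in Telaglenastat tumors and 15.9, 7.46, 10.8 and 14.9 CPM in Combination tumors. It fell by 1.38 (SE 0.18, adjusted p = 2.89e-05).

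E2F7 had 43.2, 42.9, 42.7 and 33.3 CPM with Telaglenastat and 19.2, 18.96, 12.5 and 15.8 CPM with the Combination. E2F8 had 23.9, 15.7, 18.8 and 26.9 CPM and 9.85, 6.12, 6.96 and 9.67 CPM in the same order. Neither gene overlapped between the groups, and the fall was 1.29 for E2F7 (SE 0.14, adjusted p = 1.96e-06) and 1.39 for E2F8 (SE 0.19, adjusted p = 3.36e-05). RBL1 fell by 0.80, E2F2 by 0.90, CDC25A by 0.61 and CDK2 by 0.48 on the log2 scale. CCNE1 was the member that rose, from 21.0, 21.0, 20.3 and 25 CPM to 36.8, 32.2, 28.5 and 30.3 CPM, by a log2 fold change of 0.55 (SE 0.12, adjusted p = 0.00212). E2F1 (-0.29) and E2F3 (0.09) were not called. CCNE1 lay higher in every Combination tumor (10.2% of all genes did) and the 7 fallen members lower (11.1% of all genes). The correction kept 7 lower and 1 higher, where 7.26% and 8.55% of all genes were, and CDC25A lost its call without the second Telaglenastat tumor (-0.54) or the fourth Combination tumor (-0.51).

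**Figure D3:**
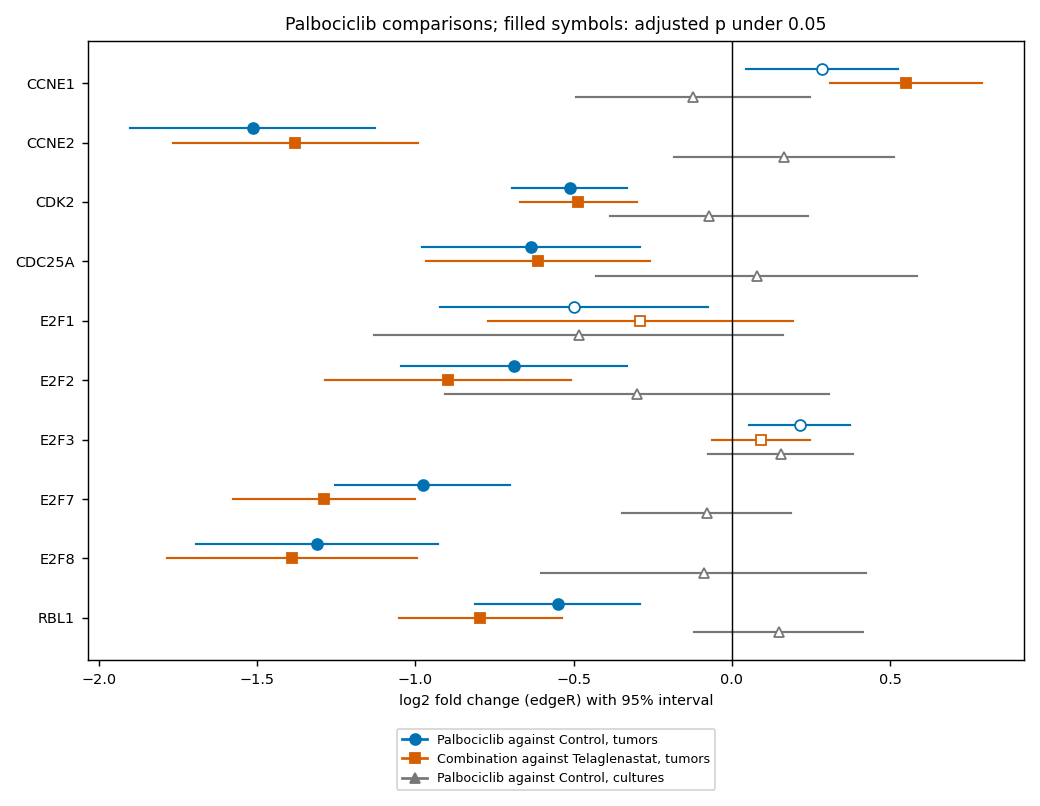
Log2 fold change of each member with its 95% interval (horizontal axis) for Palbociclib against Control tumors (circles), Combination against Telaglenastat tumors (squares) and Palbociclib against Control cultures (triangles), filled where the adjusted p is under 0.05. Circles and squares lie close together for CCNE2 (-1.51 and -1.38) and E2F8 (-1.31 and -1.39), while every culture triangle is open.

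Telaglenastat alone, against Control tumors, moved members both ways. As counted, E2F1, E2F2 and CCNE1 fell and RBL1 and E2F3 rose, 5 of 10 members, where 28.5% of all genes fell and 22.6% rose. The members' share was close to the background. In every Telaglenastat tumor CCNE1, E2F1 and E2F2 lay below Control (29.6% of all genes did) and CCNE2, E2F3 and RBL1 above (24.2% of all genes). E2F1 had 5.47, 7.52, 5.47 and 4.46 CPM with Telaglenastat, all below the lowest Control tumor (14.6 CPM), and it fell by 1.42 (SE 0.22, adjusted p = 3.17e-05). E2F2, at 12.8, 11.1, 11.996 and 14.3 CPM, fell by 0.63 (adjusted p = 0.00686), and CCNE1 fell by 0.30 (adjusted p = 0.0449). RBL1, at 43.8, 34.3, 36.9 and 37.7 CPM, rose by 0.36 on the log2 scale (adjusted p = 0.0238) and E2F3 by 0.28 (adjusted p = 0.00612). CCNE1 lost its call without the first or the third Control tumor or any 1 of the first 3 Telaglenastat tumors (-0.33 to -0.23), and RBL1 lost its own without the first (0.35) or the third Control tumor (0.30) or the first Telaglenastat tumor (0.29).

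The fold changes of the members went broadly down with their GC content. E2F1 has 62.5% GC, E2F2 57.5% and CCNE1 52.9%, and these were the genes that fell. RBL1 has 40.0% GC and E2F3 45.2%, and these rose. CDC25A (51.7%) and CDK2 (51.5%) stood between them at -0.19 and -0.11, with E2F8 (45.9%) at 0.03, E2F7 (43.1%) at 0.14 and CCNE2 (36.9%) at 0.30, all short of the threshold. After the correction no member was called, where 8.47% of all genes fell and 6.38% rose. E2F1 then stood at -0.07 (adjusted p = 0.873), E2F2 at 0.27 (adjusted p = 0.42), RBL1 at 0.03 and CCNE1 at 0.06. The correction removes whatever moves with GC content in a library, so a drug effect that itself followed GC content would be removed with it.

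**Figure D4:**
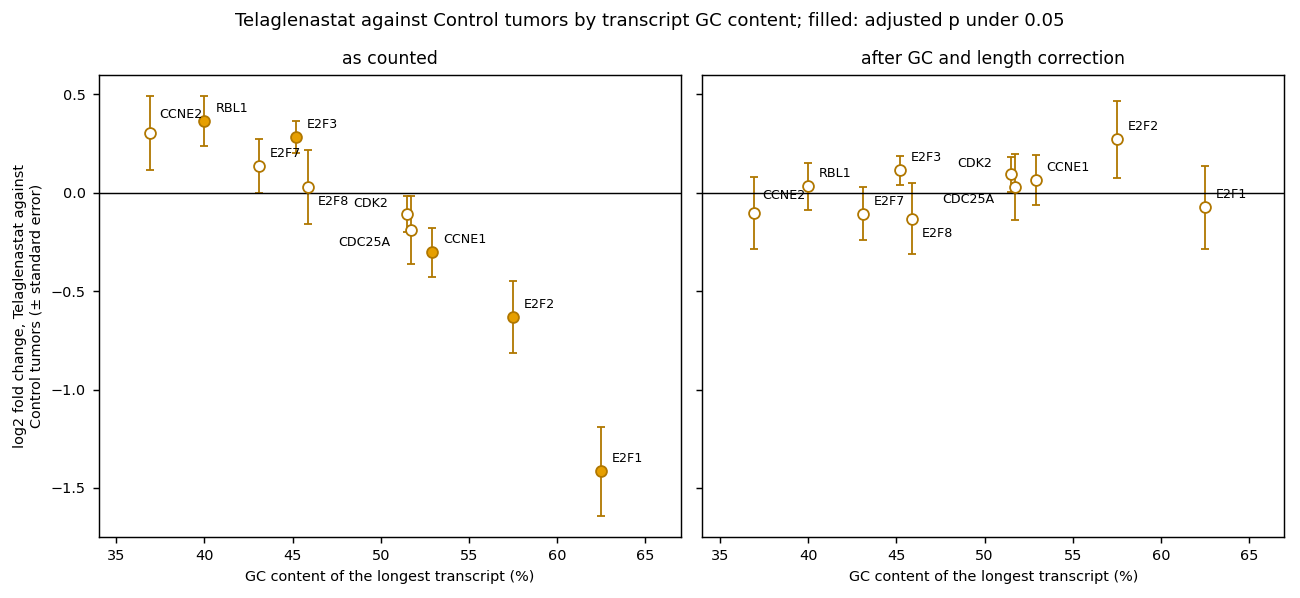
Log2 fold change of each member in Telaglenastat against Control tumors (vertical axis, ± standard error) by the GC content of its longest transcript (horizontal axis, %), as counted on the left and after the GC and length correction on the right, filled where the adjusted p is under 0.05. On the left the members descend from 0.36 for RBL1 to -1.42 for E2F1, and on the right they lie between -0.13 and 0.27.

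Combination against Control tumors joined both patterns. As counted 8 members fell, E2F1 by 1.71, E2F2 by 1.53, E2F8 by 1.36, E2F7 by 1.15, CCNE2 by 1.08, CDC25A by 0.80, CDK2 by 0.59 and RBL1 by 0.43, and E2F3 rose by 0.38, where 26.9% of all genes fell and 17.6% rose. E2F1 had 4.76, 3.43, 6.82 and 3.72 CPM and E2F2 had 7.78, 7.32, 7.38 and 4.46 CPM in Combination tumors. Both lay below Control without overlap, from counts as low as 23 for E2F1 in a library. RBL1 lost its call without the second Control tumor (-0.35). CCNE1 stood at 0.25 (95% interval -0.01 to 0.50, adjusted p = 0.107). All 8 fallen members lay below Control in every Combination tumor (28.5% of all genes did) and E2F3 above (18.8% of all genes).

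After the correction the same 8 fell, but by less for the GC-rich genes and by more for the GC-poor ones. E2F1 then stood at -0.64 (adjusted p = 0.0328) and E2F2 at -0.75 (adjusted p = 0.00964), while CCNE2 stood at -1.35, E2F7 at -1.30, E2F8 at -1.51, RBL1 at -0.63, CDC25A at -0.65 and CDK2 at -0.46. CCNE1 was called higher at 0.50 (adjusted p = 0.0045) beside E2F3 at 0.25. In the corrected comparison 13% of all genes fell and 13.3% rose.

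Combination against Palbociclib tumors, which adds Telaglenastat to Palbociclib, called E2F1 (-1.21, adjusted p = 0.000104) and E2F2 (-0.84, adjusted p = 0.000643) and no other member, where 27.5% of all genes fell and 20.1% rose. Both were lower in every Combination tumor (22.1% of all genes were). Neither count of 2 in 10 members stood above the share of all genes. The correction left neither, at -0.09 and -0.07, where 8.05% of all genes fell and 7.32% rose. CCNE2 stood at 0.44 (95% interval 0.05 to 0.83, adjusted p = 0.0591) as counted and at 0.10 corrected.

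Whether both drugs together did more or less than the sum of their separate effects was tested directly, on the log2 scale. No member departed from the sum, where 0.0673% of all genes did. The departures ran from -0.31 for E2F7 (95% interval -0.71 to 0.09) to 0.27 for CCNE1 (95% interval -0.07 to 0.60), 0 members had an unadjusted p under 0.05 in edgeR, and DESeq2 called 0 as well. The intervals were wide, reaching from -0.44 to 0.86 for E2F1, so departures of moderate size could not be detected with these groups.

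The cultures were compared in the same way, to ask what stays after growth without drug. No member was called in any of the 5 comparisons by edgeR or by DESeq2, where 0% to 0.00715% of all genes were. At an unadjusted p under 0.05 the counts were 0 for Palbociclib, 4 for Telaglenastat, 0 for Combination, 1 for Combination against Palbociclib and 3 for Combination against Telaglenastat. On simulated data the culture fit recovered 13.4% of 1.5-fold and 55.2% of 2-fold changes, against 61.2% and 92.5% in tumors, so changes of the size seen for CDK2 or RBL1 would mostly be missed.

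CCNE2, which fell furthest in Palbociclib tumors, had 41.5, 45.9 and 39.8 CPM in Control cultures and 48.3, 41.6 and 52.6 CPM in Palbociclib cultures. The groups overlapped, and the 95% interval of the log2 fold change ran from -0.18 to 0.51, above the tumor value of -1.51. E2F8 had 40.2, 42.0 and 32.3 CPM and 35.3, 30.6 and 41.5 CPM in the same order, with an interval from -0.60 to 0.42, also above its tumor value. E2F7 ran from 53.4 to 67.6 CPM in Control and from 53.6 to 61.8 CPM in Palbociclib cultures. Of the members, E2F1 was lower in every Palbociclib culture (10.1% of all genes were) and RBL1 higher (8.19% of all genes). Both counts, 1 of 10 members each, were near those shares. The log2 fold changes of E2F1 and RBL1 were -0.48 and 0.15 as counted and -0.04 and 0.03 corrected.

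Telaglenastat cultures had the lowest levels of several members. CDC25A had 59.0, 57.8 and 40.0 CPM in Control and 22.6, 29.7 and 40.7 CPM in Telaglenastat cultures, a log2 fold change of -0.76 (SE 0.24, unadjusted p = 0.00723, adjusted p = 0.711). RBL1 had 55.7, 59.5 and 50.1 CPM against 36.1, 49.0 and 41.2 CPM, without overlap, at -0.39 (adjusted p = 0.711). CCNE2, E2F3, E2F7 and RBL1 lay below Control in every Telaglenastat culture, where 4.81% of all genes did. E2F1 spread widely in this group, at 9.68, 27.6 and 17.5 CPM. The first replicate was the lowest of the 3 for all 10 members. The GC slope of the 3 libraries, with each gene centred on its mean over the 12 cultures, ran from -0.0340 to 0.418.

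A direct test of the difference asked whether a treatment effect was larger in tumors than in cultures. For Palbociclib it was more negative in tumors for CCNE2 (difference -1.69, SE 0.26, adjusted p = 0.000905), E2F8 (-1.23, adjusted p = 0.0374), E2F7 (-0.91, adjusted p = 0.0128) and RBL1 (-0.71, adjusted p = 0.04), where 1.03% of all genes were more negative. CCNE2 and E2F7 kept their calls after the correction (0.776% of all genes), and the count of 4 came down to 1 when any 1 of the third Control culture, the first Palbociclib culture or the second Control tumor was left out. For the Combination the difference was called for E2F7 alone (-0.97, adjusted p = 0.0108), where 0.795% of all genes were more negative and 2.11% more positive. At an unadjusted p under 0.05 in edgeR stood 9 of the 10 members, in both directions, and the share of all genes is not given here. The count called was 5, 6 or 5 without the first, the second or the third Telaglenastat culture. Those libraries lie outside this contrast but enter its estimate of spread. The count was 2 without the first and 3 without the third Combination tumor. After the correction the difference was called for E2F7 and CCNE2 (both -1.12), where 1.22% of all genes were more negative and 1.27% more positive.

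For Telaglenastat the differences were called for E2F1 (-1.48, adjusted p = 0.00344), RBL1 (0.84), CCNE2 (0.69), E2F7 (0.66) and E2F3 (0.60), where 18.5% of all genes were more negative and 15.6% more positive. None was called after the correction, where 3.20% and 1.47% of all genes were. E2F1 then stood at 0.03.

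Control cultures and Control tumors were compared in a fit of all 28 libraries (15466 genes), on CPM scaled over all of them. Of the members 8 were higher in culture, where 22.8% of all genes were. CDC25A had 54.2 ± 10.9 CPM in cultures and 21.7 ± 2.16 CPM in tumors (SD, n = 3 each), a log2 fold change of 1.32 (adjusted p = 2.23e-05). RBL1 (1.04), E2F8 (1.02), CCNE2 (0.87), E2F7 (0.86), CCNE1 (0.79), CDK2 (0.71) and E2F3 (0.41) were higher as well. These 8 lay above every Control tumor in every Control culture (28% of all genes did). E2F1 (0.25) and E2F2 (0.51) were not called as counted, but all 10 members were after the correction, with E2F1 at 1.07 and E2F2 at 1.10 and 23% of all genes higher.

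The wider circuit was described from short lists of genes, whose counts are read against the shares of all genes. Those shares were 3.60% lower and 2.55% higher with Palbociclib (4.00% and 3.66% corrected), 28.5% and 22.6% with Telaglenastat (8.47% and 6.38% corrected), and 26.9% and 17.6% with the Combination (13% and 13.3% corrected). Of 30 G1/S genes under E2F control, 22 fell and 0 rose with Palbociclib in tumors (median log2 fold change -0.57), and 25 fell after the correction. RRM2, the small subunit of ribonucleotide reductase, fell by 1.08, the histone methyltransferase gene EZH2 by 1.01 and MYBL2, a transcription factor of the S and G2 phases, by 0.89. With the Combination 22 of the 30 fell (median -0.59), and 25 after the correction (median -0.66). Among them were MYBL2 (-2.75 as counted, -1.79 corrected), ORC1, a subunit of the origin recognition complex (-1.61 and -1.54), the thymidine kinase gene TK1 (-2.24 and -1.15) and the replication licensing factor gene CDT1 (-1.996 and -0.82). With Telaglenastat 13 rose and 10 fell as counted, and 2 rose and 3 fell after the correction, where 10 of 30 lower and both corrected counts are near the shares of all genes. In cultures 0 of the 30 were called in any comparison.

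All 11 G2/M genes fell with Palbociclib (median -0.82) and with the Combination (median -0.67, and -0.83 corrected with all 11 lower). MKI67, which encodes the Ki-67 antigen of cycling cells, had 489 ± 45.0 CPM in Control and 236 ± 24.97 CPM in Palbociclib tumors (SD, n = 3 and 5) and fell by 1.05 (adjusted p = 1e-05). This is RNA. For the stained protein the study reports no change in the KI67 index with Palbociclib alone and the lowest index with the combined treatment. FOXM1, a transcription factor of mitotic genes, fell by 1.07 and the mitotic kinase gene AURKB by 1.03. With the Combination MKI67 fell by 1.22 (-1.21 corrected), AURKB by 2.20 (-1.67 corrected), FOXM1 by 2.01 (-1.43 corrected) and CDC20, an activator of the anaphase-promoting complex, by 1.88 (-1.13 corrected).

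Of 14 tested CDK2 partners, activators and inhibitors, 5 fell and 0 rose with Palbociclib, and 7 fell after the correction. CCNA2, the other S phase cyclin of CDK2, fell by 1.01 (93.1 ± 1.11 to 45.8 ± 5.52 CPM), the phosphatase gene CDC25C by 1.02 and CDK1 by 0.84. The inhibitor gene CDKN1B (p27) fell by 0.35 (adjusted p = 0.0363). CDKN1A (p21) stood at -0.31 (adjusted p = 0.0706) as counted and was called lower after the correction (-0.33, adjusted p = 0.0164). With the Combination 7 fell and 3 rose as counted, and 5 fell and 2 rose after the correction, so the count that rose was near the share of all genes. CCNA2 fell by 0.75 (-0.99 corrected), with CDKN1A at -0.995 as counted and -0.23 corrected, PKMYT1, a kinase that inhibits CDK1, at -0.89 and 0.40, and the phosphatase gene CDC25B at -0.77 and 0.12. CDKN1B stood at -0.11 (-0.21 corrected). PKMYT1 and CDC25B changed sign with the correction, and CDKN1A lost its call (adjusted p = 0.0656).

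Of 7 tested genes for E2F partners, other E2Fs and other pocket proteins, 0 were called with Palbociclib. TFDP1, the DNA-binding partner of the E2Fs, stood at -0.20 (adjusted p = 0.119) and RB1 at -0.27 (adjusted p = 0.114). With the Combination 2 rose and 2 fell as counted, and 1 rose and 1 fell after the correction. The count that fell and both corrected counts were near the shares of all genes. TFDP1 fell by 0.32 (-0.45 corrected) and RBL2 rose by 0.57 (0.43 corrected), and both kept their calls. E2F4 (-0.88, and -0.02 corrected) and E2F5 (0.61, and 0.40 corrected with an adjusted p of 0.0719) lost theirs. RB1 stood at 0.06 (-0.17 corrected). Of 9 genes for the ubiquitin ligases and the deubiquitinase of cyclin E and E2F turnover, only CCNF, the cyclin F subunit of an SCF ligase, fell with Palbociclib (by 0.77). With the Combination 2 rose and 2 fell as counted, both near the shares of all genes, and 2 rose and 4 fell after the correction. FBXW7, which marks cyclin E for degradation, stood at -0.03 with Palbociclib and rose by 0.53 with the Combination (0.45 corrected), where CCNF fell by 1.799 (-0.999 corrected) and FZR1, an activator of the anaphase-promoting complex, by 2.08 (-0.87 corrected).

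Of 8 tested genes for D cyclins, their kinases and INK4 inhibitors, 2 rose and 1 fell with Palbociclib. CCND1 (cyclin D1) rose by 0.95 (adjusted p = 1.64e-06) and CDKN2B (p15) by 0.66, whereas CDKN2C (p18) fell by 1.43. With the Combination 3 rose and 3 fell as counted, and 4 rose and 0 fell after the correction. CCND1 rose by 1.11 (1.19 corrected), the kinase gene CDK6 by 1.03 (0.83 corrected) and CDKN2B by 0.97 (0.795 corrected). CDKN2C (-1.73, and -0.965 corrected with an adjusted p of 0.0828), CDKN2D (-1.12, and -0.12 corrected) and CDK4 (-0.51, and -0.197 corrected) lost their calls, and CDKN2A (p16) was called higher after the correction alone (0.93). No gene of these lists was called in cultures.

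CDC25A, E2F2 and RBL1, which carry the E2F letters in their promoter windows, fell in Palbociclib tumors, and E2F1 (-0.50) and E2F3 (0.21), which also carry them, were not called. E2F7 fell without them in this window. E2F1 went the same way as CDC25A, E2F2 and RBL1, and differences between members were not tested.

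The genes most like each member were found from the group means of log2 CPM over the 8 groups, each centred, by the smallest root mean square difference among 13705 genes tested in tumors and cultures. RRM2 was nearest to CCNE2 (0.126, where the median gene lay at 0.919), followed by GAS2L3 and DLEU2. KIF4A (0.0751), MKI67 and KIF11 were nearest to E2F7, and KIF20A (0.138), MKI67 and E2F7 itself to E2F8. The nearest genes were CHAF1B, EXO1 and ARHGAP11B for CDC25A, MCM8, MPHOSPH9 and MMS22L for RBL1, and FAM64A, NCAPD2 and SPC24 for E2F2. XRCC3, MCM7 and DTYMK were nearest to E2F1, SSRP1, SAE1 and GGA2 to CDK2, METTL8, GALNT1 and SLC31A1 to E2F3, and DESI1, NR6A1 and FAM171A1 to CCNE1. These means are uncorrected, so genes of like GC content can be near each other through the trend described above.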

How the data were processed

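Counts were used as deposited by the authors. Per the labels and the study's methods, poly(A) RNA was made into libraries with a NEBNext Ultra kit that marks strand by uracil and was sequenced as single-end reads, and reads were counted per gene with STAR (the submitters' processing notes name CASAVA 1.8 and hg38). The strand setting of the counting is not given in the sources used here. The study itself used DESeq2. Here edgeR 4.0.16 (R 4.3.3, limma 3.58.1) was run on the counts with TMM scaling, filterByExpr at a minimum count of 10, quasi-likelihood tests of group means and Benjamini-Hochberg adjustment over all genes tested, with a threshold of 0.05. Tumors and cultures were fitted separately, and all 28 libraries jointly for tumors against cultures. Tumors came from separate mice and cultures were separate lines.

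Lengths, GC content and coordinates came from GENCODE 29 (GRCh38), which matched 57940 gene IDs. The GC and length correction used robust natural splines (5 degrees of freedom) per library as offsets. Alternatives were DESeq2 1.42.0, its size factors, no filter, a replicate block, 1 fit of all libraries, only the compared groups, and each library left out. The fits were tested on simulated data with 200 changed genes, and the recovery quoted is for Palbociclib against Control. The members and lists were chosen with earlier results of these data known. All members were named, other genes only from the lists, and the 3 nearest genes by likeness.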

Additional observations from a re-analysis of the deposited data

Results flagged for a closer look

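Within groups of 4 or 5 tumors, 3 values of the members stood apart from the rest of their group by Dixon's criterion at the 95% level, of 30 groups tested, where chance alone sets some apart. CCNE1 had 25 CPM in Telaglenastat tumor 4, above the other 3. E2F7 had 33.3 CPM in the same tumor, below the other 3. E2F2 had 4.46 CPM in Combination tumor 4, below the other 3.

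Several treatment effects differed between tumors and cultures by a direct test of the difference (edgeR, adjusted over all genes). For Palbociclib, tumors minus cultures, the log2 difference was -1.69 for CCNE2, -1.23 for E2F8, -0.91 for E2F7 and -0.71 for RBL1. Of all genes, 1.03% were more negative there. For Telaglenastat it was -1.48 for E2F1, 0.84 for RBL1, 0.69 for CCNE2, 0.66 for E2F7 and 0.60 for E2F3. There 18.5% of all genes were more negative and 15.6% more positive, and no member was called after the GC and length correction. For the Combination it was -0.97 for E2F7, where 0.795% of all genes were more negative and 2.11% more positive.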

How the results depend on the processing

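The numbers of members called in Palbociclib against Control (7), Combination against Control (9), Combination against Telaglenastat (8) and Control cultures against tumors (8) stayed within 1.5 times under every alternative that kept all libraries. With each library left out they were 4 to 7, 8 to 9, 7 to 8 and 8 to 9. Telaglenastat against Control tumors (5) gave 3 in the fit of all 28 libraries, 0 after the GC and length correction, and 3 to 5 with a library left out (3 without Control 1, Control 3 or Telaglenastat 1). Combination against Palbociclib (2) gave 4 with DESeq2, with its size factors and in the fit of all 28 libraries, 0 after the correction, and 2 to 4 with a library left out (4 without Palbociclib 2). Telaglenastat cultures (0) gave 1, CDC25A, without the filter. The Palbociclib difference between tumors and cultures (4) gave 2 after the correction and 1 to 4 with a library left out. It was 2 without Control culture 1, Palbociclib culture 3, Control tumor 3, Palbociclib tumor 3 or Palbociclib tumor 5. The Telaglenastat difference (5) gave 2 without the filter, 0 after the correction and 4 to 6 with a library left out. The Combination difference (1) gave 4 with DESeq2, 5 without the filter, 2 after the correction and 1 to 6 with a library left out. The causes were not tested.

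Same-numbered libraries did not deviate together (r from -0.128 to 0.0896 in tumors and from -0.423 to 0.140 in cultures), so they share only a number. With the replicate block the count was 5 for Palbociclib against Control, 4 for Telaglenastat against Control and 1 for the Palbociclib difference. With the replicate block and the correction it was 6, 0 and 1, and 0 for Combination against Palbociclib, 0 for the Telaglenastat difference and 2 for the Combination difference.

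Signs turned for these log2 values of Telaglenastat against Control, given with the correction and then with block and correction: CCNE1 0.0643 and 0.0787, CCNE2 -0.10 and -0.13, CDK2 0.0925 and 0.10, CDC25A 0.0281 and 0.12, E2F2 0.27 and 0.35, E2F7 -0.11 and -0.0614, E2F8 -0.13 and -0.23. E2F1 turned only with both (0.0051). E2F8 also turned with the block (-0.0690) and without Control 1 (-0.09), Control 2 (-0.00418), Telaglenastat 1 (-0.03) or Telaglenastat 4 (-0.10), with 0.182 the highest value with a library left out. In Combination against Palbociclib, CCNE1 turned with DESeq2 (0.0062), its size factors (0.0063), the block (0.000739), the correction (0.23), block and correction (0.26), all 28 libraries (0.0685) and without Combination 3 (0.0126). CDK2 turned with the correction (0.0608), block and correction (0.0491) and all 28 libraries (0.0231), CDC25A with block and correction (0.0084), RBL1 with the correction (-0.14) and with block and correction (-0.16). E2F8 turned with all 28 libraries (0.0563) and without Combination 2 (0.0654) or 3 (0.0204), from a lowest value of -0.147 with a library left out. The E2F1 Telaglenastat difference was 0.0276 and 0.10. The lowest count of a member in a tumor was 23, for E2F1.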
